A study of Mus musculus with 48 samples.

Results

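The 4 reprogramming factor genes Pou5f1, which encodes OCT4, Sox2, Klf4, and Myc were taken by name from the 24264 transcripts that were counted, and their reads were followed through all 20 conditions of the series. These conditions compare reprogramming of mouse embryonic fibroblasts (MEFs) by the MKOS and the OKMS cassette, each of which places the 4 factors on one transcript, switched on by doxycycline, in the order its letters give (M for Myc, K for Klf4, O for Oct4, and S for Sox2). Klf4 is a longer form in MKOS and lacks N-terminal residues in OKMS. Of the 48 libraries, 24 came from 8 populations that were sorted during reprogramming, with 3 libraries each, and the other 12 conditions had 2 libraries each.

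The sorted cells came from TNG MKOS or TNG OKMS MEFs, which were mixed as a small minority with wild-type (WT) MEFs and cultured with doxycycline and vitamin C. In TNG cells, which are Nanog G/+, GFP at a Nanog allele reports Nanog activity and the other allele is intact. The TNG MKOS and TNG OKMS embryonic stem cells (ESCs) were made by targeting a cassette together with its transactivator, rtTA under the CAG promoter, to an intron of Sp3, and their MEFs were taken from chimeric embryos. Such MEFs can include host cells without the cassette, and their share in the MKOS and OKMS MEF libraries is not given. The gate 2 denotes CD44-low ICAM1-low cells, the gate 3 CD44-low ICAM1-high cells, NG- cells were Nanog-GFP-negative, and NG+ cells were Nanog-GFP-positive. E-cadherin-positive (E-CAD+) populations exist for MKOS and OKMS in 2NG-, 3NG-, and 3NG+, while E-CAD- ones, in 2NG- and 3NG-, exist for OKMS. For the time in culture, the series description names day 10 and the growth protocol 10 or 15 days. The unsorted conditions were WT, MKOS, and OKMS MEFs; MKOS and OKMS induced pluripotent stem cell (iPSC) clones kept without doxycycline (-dox) or in 2i; D6 iPSCs, a line with a single piggyBac MKOS insertion in Sp3; and TNG MKOS, TNG OKMS, TNG, and E14 ESCs. TNG and E14 ESCs and WT MEFs carry no cassette. The labels do not say whether replicates came from separate cultures, so p-values measure the spread between these libraries only. Each iPSC condition is a clone or line, and its clone cannot be told apart from its cassette. The medium and doxycycline of D6 iPSCs and of MEFs at harvest are not stated. In comparisons of D6 with other iPSCs, line and culture condition therefore cannot be told apart.

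OCT4 and SOX2 are partners that bind DNA next to each other and keep the genes of pluripotent cells active, their own genes included. KLF4 is a zinc finger factor that binds CACCC and GC-rich elements and is made both in ESCs and in differentiated cells such as fibroblasts and epithelia. MYC binds E-boxes together with MAX and raises genes for ribosome production and growth, and it is dispensable for ESCs that are kept in 2i, a pair of kinase inhibitors.

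The endogenous genes lie at chr17:35506032-35510777 on the plus strand (Pou5f1), chr3:34649995-34652461 on the plus strand (Sox2, inside the long noncoding transcript Sox2ot on the same strand, which had 219 reads against 51952 for Sox2), chr4:55527137-55532475 on the minus strand (Klf4), and chr15:61985341-61990361 on the plus strand (Myc), all in GRCm38. Reads were counted at 5′ ends, so the 250 bases before the annotated start, from RefSeq GRCm38.p6, are shown for the 3 members that were matched in the promoter table, with the motifs searched on both strands in capitals. The motifs were the E-box CACGTG bound by MYC and MAX, the GC box GGGCGG, the octamer core ATGCAAA, and the CACCC box CCACACCC.
Pou5f1, chr17:35505782-35506031, plus strand: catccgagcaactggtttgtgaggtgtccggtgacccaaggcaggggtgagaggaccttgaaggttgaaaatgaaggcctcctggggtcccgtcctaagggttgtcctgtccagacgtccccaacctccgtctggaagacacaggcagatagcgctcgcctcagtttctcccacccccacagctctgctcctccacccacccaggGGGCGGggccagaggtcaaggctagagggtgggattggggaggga
Sox2, chr3:34649745-34649994, plus strand: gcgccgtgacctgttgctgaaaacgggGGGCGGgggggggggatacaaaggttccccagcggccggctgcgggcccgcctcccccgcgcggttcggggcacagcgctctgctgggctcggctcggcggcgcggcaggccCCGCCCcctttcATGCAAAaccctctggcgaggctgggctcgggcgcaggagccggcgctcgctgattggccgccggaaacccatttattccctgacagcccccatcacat
Klf4, chr4:55532476-55532725, minus strand: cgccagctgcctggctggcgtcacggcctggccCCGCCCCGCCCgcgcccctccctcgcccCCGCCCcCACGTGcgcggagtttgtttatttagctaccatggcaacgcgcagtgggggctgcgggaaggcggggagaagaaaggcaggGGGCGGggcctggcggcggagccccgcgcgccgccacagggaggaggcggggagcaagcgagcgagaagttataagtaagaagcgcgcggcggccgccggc
Pou5f1 held 1 GC box, Sox2 held 2 GC boxes and 1 octamer core, and Klf4 held 4 GC boxes, 2 of which share 1 base, and 1 E-box. Of 32851 promoters of the same length, 32.7% held a GC box, 6.02% an E-box, 4.12% an octamer core, and 3.2% a CACCC box, which was found in none of the 3.

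The counts give 1 value per gene, so reads from the endogenous gene and from the cassette cannot be told apart, and which cassette reads were counted at all depends on where in the cassette transcript they begin. Reads with several positions in the genome made up 23.5% of the Klf4 reads and 12.8% of the Pou5f1 reads over all libraries, against 0.0077% for Sox2 and 0% for Myc. The annotation names 5 Pou5f1-related sequences, and 0 of them had an entry of their own in the counts, so Klf4 and Pou5f1 levels are less certain than the other two. In these bulk samples, fewer cells that express a gene and less RNA per cell cannot be told apart.

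Library depth ran from 1429717 to 14174725 transcript reads. Levels are given as CPM, the reads of a gene scaled to a fixed total of transcript reads in its library, and 3 reads corresponded to 0.212 to 2.10 CPM. The labels were checked with markers. Pluripotent cell markers (Nanog, Zfp42, Esrrb, Dppa5a, and Utf1) summed to 9967 to 22078 CPM in ESCs and iPSCs and to 1.89 to 11.4 CPM in MEFs, where 2 or 3 of the 5 had no read in a condition. Fibroblast markers (Col1a1, Col1a2, Col3a1, Thy1, Postn, and Fbn1) summed to 2917 to 5012 CPM in MEFs, to 4.53 to 26.4 CPM in ESCs and iPSCs, and to 78.6 to 969 CPM in the sorted populations, with reads for each of the 6. Replicate 3 of OKMS E-CAD+ cells, in the 2NG- and in the 3NG- gate, stood apart from the other two libraries in the members described here and in the pluripotent markers, which summed to 2765 CPM against 613 and 812 CPM in 2NG- and to 4748 CPM against 1386 and 1998 CPM in 3NG-. Values without them are given beside some of the results they enter.

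Over 25 comparisons of conditions, 24 of 100 member tests passed an FDR of 0.05 with the edgeR quasi-likelihood test. Pou5f1 passed in 8, Klf4 in 6, and Sox2 and Myc in 5 each. No member passed in 11 of the comparisons, in which 6 of 44 member tests had an unadjusted p under 0.05 and DESeq2 called 1.

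**Figure D1:**
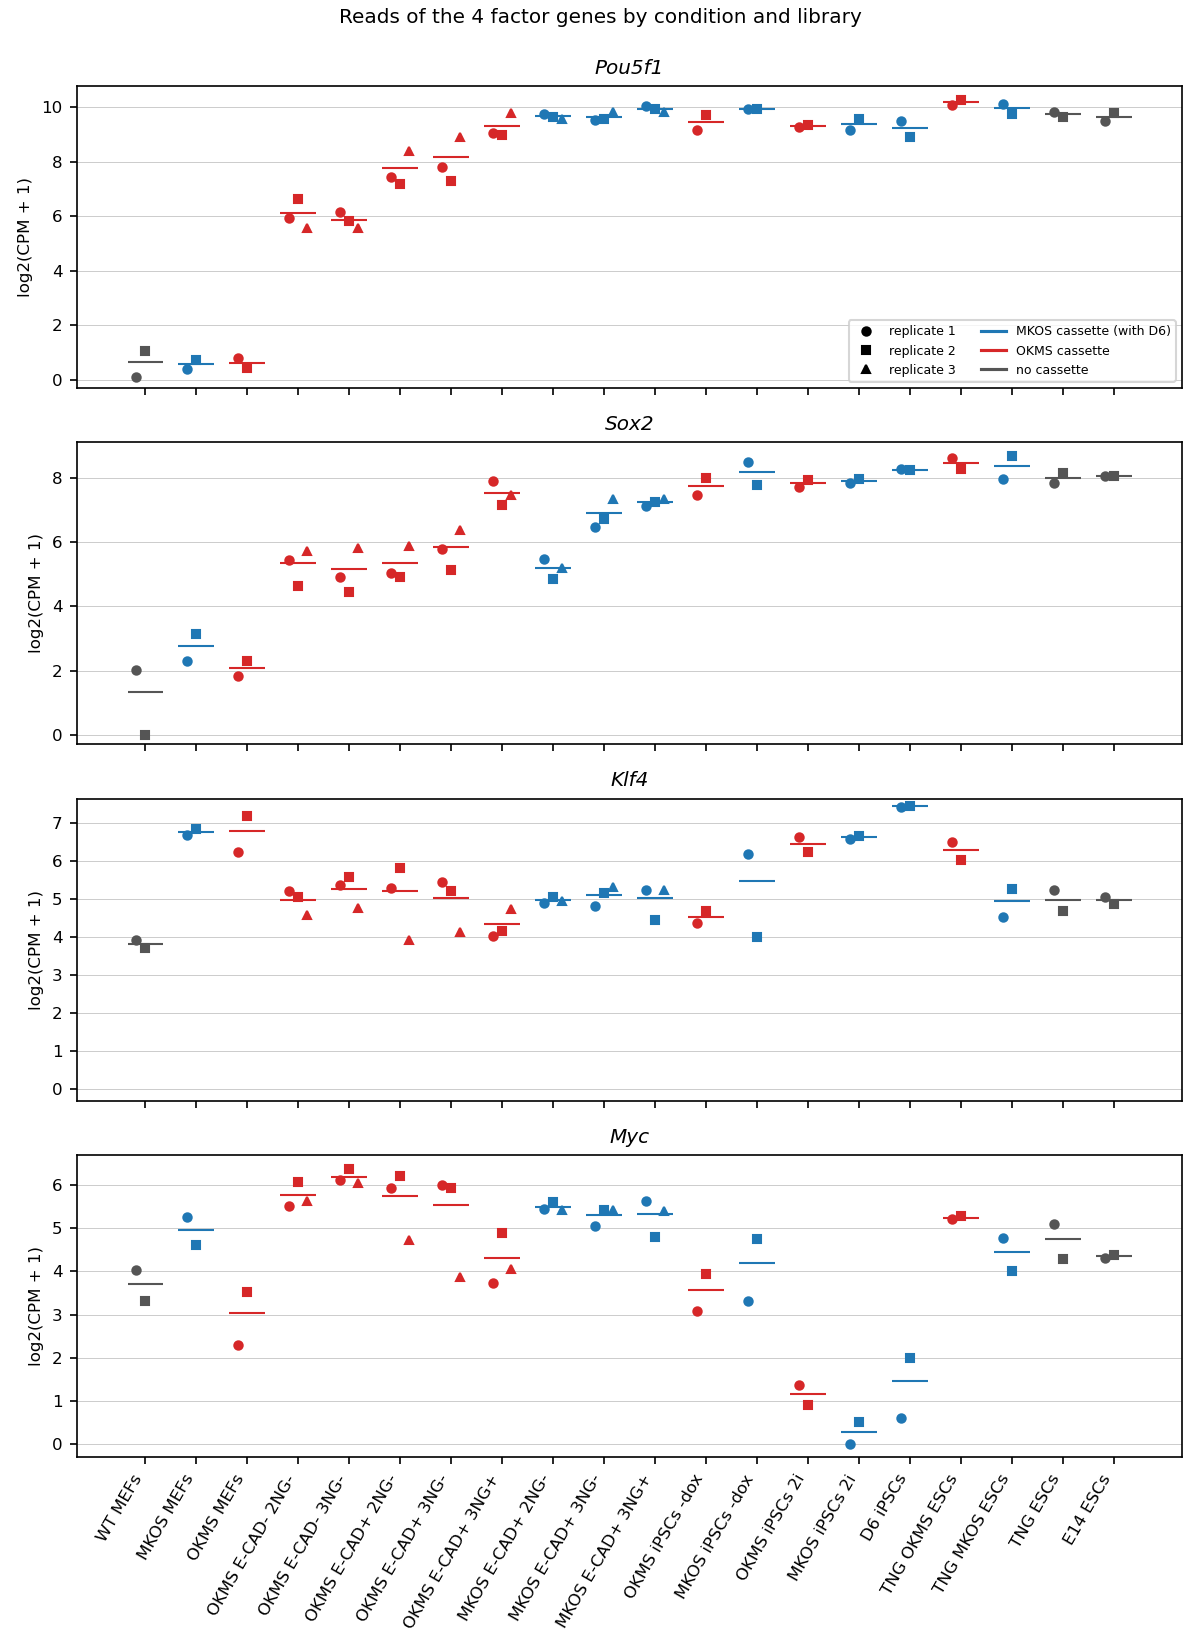
Levels of the 4 factor genes as log2(CPM + 1) on the vertical axis of each panel, in 20 conditions along the horizontal axis; each symbol is a library, its shape the replicate number, its color the cassette, and each line the average of a condition. Pou5f1 and Sox2 are lowest in the 3 MEF conditions, Klf4 is highest in D6 iPSCs at 173 CPM, and Myc is lowest in iPSCs in 2i and in D6 iPSCs.

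Pou5f1 was near 0 in MEFs and was within the range of ESCs and iPSCs in every MKOS sorted population, whereas in OKMS cells it lay below that range until Nanog-GFP was on. MEFs had 1 to 6 Pou5f1 reads per library, or 0.0755 to 1.10 CPM, with or without a cassette. In MKOS reprogramming the 3 libraries had 857, 796, and 765 CPM in 2NG- cells, 738, 756, and 895 CPM in 3NG- cells, and 1055, 978, and 898 CPM in 3NG+ cells. These levels lay within those of ESCs and iPSCs, which ranged from 483 to 1230.1 CPM, and neither step between the gates passed the test.

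In OKMS reprogramming, Pou5f1 was 60.7, 97.5, and 46.1 CPM in E-CAD- 2NG- cells and 70.4, 55.8, and 46.8 CPM in E-CAD- 3NG- cells. E-CAD+ cells had 174, 144, and 333 CPM in 2NG- and 225, 154, and 475 CPM in 3NG-. OKMS 3NG+ cells had 535, 499, and 879 CPM. All E-CAD+ libraries were above all E-CAD- libraries, and all 3NG+ libraries were above all 3NG- libraries, while replicate 3 was the highest in each E-CAD+ population. In E-CAD+ 3NG- cells replicate 3, at 475 CPM, was only just below the lowest ESC or iPSC library, D6 replicate 2 at 483 CPM.

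The rise from MEFs was the largest change of any member. From MKOS MEFs to MKOS 2NG- cells Pou5f1 rose by a log2 fold change of 10.76 ± 0.69 (SE, edgeR FDR = 1.35e-14), and 3 of 4 members were called, against 27% of the 15630 genes tested. Since only 6 reads lie behind the MEF value, the pooled reads give a ratio of 1932 with an exact interval of 887 to 5264 at 95%, which covers counting error only. From OKMS MEFs the rise was 7.003 ± 0.64 to E-CAD- 2NG- cells (edgeR FDR = 1.53e-10) and 8.85 ± 0.66 to E-CAD+ 2NG- cells (edgeR FDR = 2.86e-13), and in both cases 4 of 4 members were called, against 21.8% and 29.2% of all genes. With 1 of the OKMS MEF libraries left out these rises were log2 6.33 to 7.61 and 8.14 to 9.46, and without replicate 3 of E-CAD+ 2NG- cells the latter was 8.34.

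Within OKMS reprogramming Pou5f1 was 3.61-fold higher in E-CAD+ than in E-CAD- cells of the 2NG- gate (log2 1.85 ± 0.35, edgeR FDR = 0.00123) and 5.33-fold higher in the 3NG- gate (log2 2.41 ± 0.36, edgeR FDR = 2.62e-05). It was the only member called in either comparison, where 2.38% and 1.75% of all genes were called. Without the 7 sorted libraries that are not part of the published condition averages, replicate 3 of these populations among them, the values were log2 1.08 (edgeR FDR = 0.0702) in 2NG- and 1.62 (edgeR FDR = 0.00315) in 3NG-. Without E-CAD+ replicate 3 alone they were log2 1.34 (edgeR FDR = 0.0259) in 2NG- and 1.79 (edgeR FDR = 0.00154) in 3NG-. Fibroblast markers summed to 539 to 866 CPM in the E-CAD- and to 78.6 to 282 CPM in the E-CAD+ cells of these gates, and pluripotent markers to 79.5 to 187 CPM and 613 to 4748 CPM; their part in the difference was not tested.

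From OKMS E-CAD+ 3NG- to 3NG+ cells Pou5f1 rose 2.57-fold (log2 1.36 ± 0.34, edgeR FDR = 0.0113), and 2 of 4 members were called, against 6.26% of all genes. This call was lost without replicate 1 or 2 of 3NG- cells (log2 1.19, FDR = 0.0870, and log2 1.07, FDR = 0.122) or without replicate 3 of 3NG+ cells (log2 1.03, FDR = 0.0982), whereas without replicate 3 of 3NG- cells the rise was log2 1.99 (FDR = 0.000417), all with edgeR. In order of its averages, Pou5f1 ran from 1153 ± 108 CPM (SD, n = 2) in TNG OKMS ESCs to 0.486 ± 0.253 CPM (n = 2) in MKOS MEFs. Of the 19 steps between neighbors in this order, 3 exceeded the sum of both SDs, namely those from MKOS iPSCs -dox to TNG ESCs, from OKMS E-CAD+ 2NG- to OKMS E-CAD- 2NG- cells, and from OKMS E-CAD- 3NG- cells to WT MEFs.

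Sox2 rose from MEFs to 2NG- cells under both cassettes, but every 2NG- library was below every ESC and iPSC library. MEFs had 3.02 and 0 CPM (WT), 3.89 and 7.75 CPM (MKOS), and 2.60 and 3.89 CPM (OKMS). MKOS 2NG- cells had 43.4, 28.0, and 35.5 CPM, 3NG- cells 87.8, 104, and 162 CPM, and 3NG+ cells 140, 152, and 161 CPM. All MKOS 2NG- libraries lay below all 3NG- libraries, while the 3NG- and 3NG+ libraries overlapped.

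In OKMS cells Sox2 ranged from 20.9 to 55.3 CPM in the 6 E-CAD- libraries, and was 31.7, 29.01, and 57.6 CPM in E-CAD+ 2NG- and 54.4, 34.3, and 82.9 CPM in E-CAD+ 3NG- cells. OKMS 3NG+ cells had 237, 141, and 178 CPM, above every NG- library of the cassette. ESCs and iPSCs had 176 to 407 CPM.

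Sox2 rose from MEFs by log2 2.65 ± 0.49 to MKOS 2NG- cells (edgeR FDR = 5.67e-05), by 3.57 ± 0.52 to OKMS E-CAD- 2NG- cells (edgeR FDR = 2.00e-06), and by 3.73 ± 0.52 to OKMS E-CAD+ 2NG- cells (edgeR FDR = 4.77e-07), the last of which was 3.28 without replicate 3 of those cells. A later step passed in each route. In MKOS it was 2NG- to 3NG- cells, a 3.09-fold rise (log2 1.63 ± 0.37, edgeR FDR = 0.0313) that made Sox2 the 1 member called, against 0.39% of all genes. That call was lost without any single 2NG- library or without replicate 3 of 3NG- cells, with log2 values of 1.38 to 1.81 and an edgeR FDR of 0.104 to 0.301, and without the 7 sorted libraries (log2 1.38, edgeR FDR = 0.1001). In OKMS it was E-CAD+ 3NG- to 3NG+ cells, a 3.75-fold rise (log2 1.91 ± 0.38, edgeR FDR = 0.00128) that was log2 2.30 without replicate 3 of 3NG- cells. The other step did not pass, at log2 0.45 ± 0.37 from OKMS E-CAD+ 2NG- to 3NG- cells and 0.55 ± 0.36 from MKOS 3NG- to 3NG+ cells. The difference between the cassettes in the change from 3NG- to 3NG+ cells was log2 -1.36 ± 0.52 and did not pass (edgeR FDR = 0.502), so the routes were not shown to differ in this step. Whether they differed in the change from 2NG- to 3NG- cells was not tested. Of the 19 steps between neighboring averages, from 350 ± 58.8 CPM (SD, n = 2) in TNG OKMS ESCs to 1.51 ± 2.13 CPM (n = 2) in WT MEFs, 1 exceeded the sum of both SDs, that from OKMS E-CAD- 3NG- cells to MKOS MEFs.

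Klf4 was already present in MEFs, and MKOS and OKMS MEFs had more of it than WT MEFs and than any sorted population. WT MEFs had 14.3 and 12.1 CPM, MKOS MEFs 103 and 114 CPM, and OKMS MEFs 75.0 and 144 CPM. The difference from WT MEFs was 8.16-fold for MKOS MEFs (log2 3.03 ± 0.48, edgeR FDR = 0.000263) and 7.80-fold for OKMS MEFs (log2 2.96 ± 0.48, edgeR FDR = 0.000498). Klf4 was the 1 member called in each comparison, against 0.422% and 0.518% of all genes, and without replicate 2 of WT MEFs the OKMS call was lost (log2 2.92, edgeR FDR = 0.0764).

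Of the 15 other KLF genes tested, 2 were higher in the MEFs of each cassette than in WT MEFs and 0 were lower. Of all genes, 0.256% were higher in MKOS and 0.186% in OKMS MEFs. The median log2 difference of the KLF genes was 1.12 for MKOS and 1.03 for OKMS against 0 over all genes. An unadjusted p under 0.05 was reached by 7 and 9 of the 15, against 1060 and 1197 of the 15630 genes. Klf10, which responds early to TGF-beta, had 13.96 and 15.2 CPM in WT MEFs, 136 and 174 CPM in MKOS MEFs, and 80.4 and 155 CPM in OKMS MEFs (log2 3.40 ± 0.48, edgeR FDR = 4.4e-05, and log2 2.92 ± 0.47, edgeR FDR = 0.0005). Klf9, a glucocorticoid-responsive member of the family, had 11.2 and 0.548 CPM in WT MEFs, 59.9 and 65.4 CPM in MKOS MEFs, and 30.4 and 63.3 CPM in OKMS MEFs (log2 3.33 ± 0.54, edgeR FDR = 0.00031, and log2 2.83 ± 0.53, edgeR FDR = 0.0056). WT MEFs were lower than all MEFs with a cassette for Klf4, Klf9, and Klf10. The same held for Klf2, which edgeR did not call, at 3.85 and 9.86 CPM in WT, 19.2 and 25.3 CPM in MKOS, and 12.4 and 23.2 CPM in OKMS MEFs. The cassette and the embryos from which the MEFs were taken cannot be told apart, and both comparisons share the WT libraries. Sp3, the gene that holds the cassette, differed by log2 0.21 ± 0.37 and -0.11 ± 0.37, and neither passed.

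In sorted cells Klf4 was 20.9 to 38.8 CPM in the 9 MKOS libraries, 22.8 to 47.1 CPM in the 6 OKMS E-CAD- libraries, and 14.2 to 55.4 CPM in the 9 OKMS E-CAD+ libraries. OKMS E-CAD+ 2NG- cells had 38.0, 55.4, and 14.2 CPM and 3NG- cells 43.0, 35.9, and 16.5 CPM, so replicate 3 was again apart from the others, here as the lowest. From MEFs of the same cassette, Klf4 fell, with a log2 change of -1.87 ± 0.40 in MKOS 2NG- cells (edgeR FDR = 0.000369), -1.85 ± 0.40 in OKMS E-CAD- 2NG- cells (edgeR FDR = 0.000623), and -1.53 ± 0.40 in OKMS E-CAD+ 2NG- cells (edgeR FDR = 0.00307). The last call was lost without replicate 2 of OKMS MEFs (log2 -1.15, edgeR FDR = 0.097) and kept without replicate 3 of the E-CAD+ 2NG- cells (log2 -1.15, edgeR FDR = 0.0341). WT MEFs averaged 13.2 CPM, below the averages of all 8 sorted populations (19.3 to 37.8 CPM). The direction of the change therefore depends on which MEFs are taken as the start, and sorted cells were not tested against WT MEFs. No later step along either route passed for Klf4.

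Among the pluripotent lines, Klf4 was highest in D6 iPSCs, with 171 and 174 CPM, and iPSCs in 2i had 95.6 and 99.4 CPM (MKOS) and 98.8 and 74.1 CPM (OKMS). Without doxycycline, MKOS iPSCs had 71.7 and 15.1 CPM and OKMS iPSCs 19.6 and 24.9 CPM. D6 was 4.39-fold above MKOS iPSCs -dox (log2 2.13 ± 0.46, edgeR FDR = 0.00968), a call that was lost without either D6 library (FDR = 0.0781 and 0.0599) and without replicate 2 of MKOS iPSCs -dox (log2 1.43, FDR = 0.342), while without replicate 1 of the latter the log2 difference was 3.64. For 2i against -dox, neither MKOS (log2 1.11 ± 0.44, edgeR FDR = 0.226) nor OKMS iPSCs (log2 1.82 ± 0.46, edgeR FDR = 0.0517) passed, although DESeq2 called the OKMS difference (log2 1.78, FDR = 0.0174) and edgeR called that in MKOS without replicate 1 of MKOS iPSCs -dox (log2 2.62, FDR = 0.00660). TNG OKMS ESCs had 90.2 and 64.6 CPM, while TNG, TNG MKOS, and E14 ESCs together had 22.0 to 37.5 CPM. The difference between TNG OKMS and TNG ESCs was log2 1.09 ± 0.44 and did not pass (edgeR FDR = 1.00). Between these ESCs edgeR called 0 genes, or 0% of those tested, with 725 genes at an unadjusted p under 0.05, and DESeq2 called 17. Of the 19 steps in the order of Klf4 averages, 2 exceeded the sum of both SDs, from D6 iPSCs to OKMS MEFs and from MKOS MEFs to MKOS iPSCs in 2i.

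By its averages, Myc was highest in OKMS cells that were Nanog-GFP-negative and lowest in iPSCs in 2i and in D6 iPSCs. WT MEFs had 15.3 and 8.95 CPM, MKOS MEFs 37.3 and 23.3 CPM, and OKMS MEFs 3.90 and 10.4 CPM. The 9 MKOS sorted libraries ranged from 26.9 to 48.8 CPM without a step that passed. OKMS cells had 44.8 to 81.6 CPM in the 6 E-CAD- libraries.

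OKMS E-CAD+ cells had 59.5, 72.9, and 25.3 CPM in 2NG-, 63.2, 59.7, and 13.7 CPM in 3NG-, and 12.2, 28.7, and 15.6 CPM in 3NG+. Replicates 1 and 2 of the NG- populations were thus above the range of MKOS cells, and replicate 3 was below it. Myc rose from OKMS MEFs by log2 2.85 ± 0.57 to E-CAD- 2NG- cells (edgeR FDR = 0.00023) and by 2.96 ± 0.57 to E-CAD+ 2NG- cells (edgeR FDR = 0.0001), whereas MKOS 2NG- cells differed from MKOS MEFs by 0.47 ± 0.50 (edgeR FDR = 0.524). Without replicate 2 of OKMS MEFs the rises in OKMS were log2 3.60 and 3.68, and without replicate 3 of E-CAD+ 2NG- cells the second was 3.27. The change from MEFs to E-CAD+ 2NG- cells differed between the cassettes by log2 -2.49 ± 0.73, MKOS minus OKMS, and did not pass (edgeR FDR = 0.0753). It passed with DESeq2 (log2 -2.53, FDR = 0.0319) and, with edgeR, without replicate 3 of OKMS E-CAD+ 2NG- cells (log2 -2.81, FDR = 0.0420). The cassettes were further apart in MEFs than in these sorted cells. Myc averaged 30.3 CPM in MKOS and 7.16 CPM in OKMS MEFs (n = 2 each), against 43.8 and 52.6 CPM in E-CAD+ 2NG- cells. Over the 3 differences of changes that were tested, 0 of 12 member tests passed with edgeR, 3 had an unadjusted p under 0.05, and DESeq2 called 1; 1.35% of all genes were called for the change from MEFs, 0.0256% for that from 3NG- to 3NG+ cells, and 0.064% for that from 3NG+ cells to iPSCs. From OKMS 3NG- to 3NG+ cells Myc differed by log2 -1.14 ± 0.46 (edgeR FDR = 0.139), and by -1.55 without replicate 3 of 3NG- cells (edgeR FDR = 0.0261).

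In 2i the 2 MKOS iPSC libraries had 0 and 2 Myc reads, or 0 and 0.44 CPM, against 9.02 and 25.7 CPM without doxycycline. OKMS iPSCs had 1.59 and 0.878 CPM in 2i and 7.42 and 14.3 CPM without doxycycline, and D6 iPSCs had 0.518 and 2.98 CPM. The libraries in 2i did not overlap those without doxycycline, and both D6 libraries were below every -dox library. Pooled reads gave a ratio of -dox to 2i of 69.6 in MKOS iPSCs (exact interval 19.1 to 578) and of 9.003 in OKMS iPSCs (5.16 to 17.0), and a ratio of MKOS iPSCs -dox to D6 of 8.21 (5.83 to 11.8), again for counting error only.

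The fitted decrease in 2i was log2 -6.25 ± 0.94 in MKOS iPSCs (edgeR FDR = 5.85e-05) and -3.26 ± 0.71 in OKMS iPSCs (edgeR FDR = 0.0167), where Myc was the 1 member called, against 1.97% and 0.505% of all genes. The MKOS call held without each library in turn, at log2 -9.94 to -5.25, the lowest of which rests on a library with 0 reads. That in OKMS was lost without either library in 2i (FDR = 0.126 and 0.270) and without replicate 2 of the -dox cells (log2 -2.76, FDR = 0.0903). In D6 Myc was lower by log2 -3.13 ± 0.63 (edgeR FDR = 0.00627), and 2 of 4 members were called, against 0.889% of all genes; the Myc call was lost without replicate 1 of D6 (log2 -2.40, FDR = 0.258) and without replicate 2 of MKOS iPSCs -dox (log2 -2.17, FDR = 0.256), and without replicate 2 of D6 the log2 difference was -4.87. Of the 11 other genes of the MYC network that were tested, which include its dimer partner Max and the antagonists of the Mxd group, 0 were called by edgeR or DESeq2 for 2i in either cassette or for D6, with 1, 0, and 0 at an unadjusted p under 0.05. Mycn, the paralog that is high in ESCs, had 85.4 and 81.4 CPM in MKOS iPSCs -dox and 13.2 and 31.5 CPM in 2i. Of 14 MYC targets, 2 were lower in 2i in MKOS iPSCs and 0 were higher, namely Odc1, the first enzyme of polyamine synthesis (log2 -1.46 ± 0.34, edgeR FDR = 0.012), and Nop56, a nucleolar protein of ribosome assembly (log2 -0.79 ± 0.21, edgeR FDR = 0.031), while edgeR called 0 of the 14 in OKMS iPSCs in 2i and 0 in D6, with 1 and 5 at an unadjusted p under 0.05 and 1 and 2 called by DESeq2. In the order of Myc averages, from 71.8 ± 8.64 CPM (SD, n = 3) in OKMS E-CAD- 3NG- cells to 0.22 ± 0.311 CPM (n = 2) in MKOS iPSCs in 2i, 1 of 19 steps exceeded the sum of both SDs, the last.

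The other steps and lines showed no called member. From MKOS 3NG- to 3NG+ cells 1.58% of all genes were called, from OKMS E-CAD+ 2NG- to 3NG- cells 0.0384%, and from E-CAD- 2NG- to 3NG- cells 0.0448%. From 3NG+ cells to iPSCs -dox 2.14% were called in MKOS, where Sox2 differed by log2 0.90 ± 0.40 (edgeR FDR = 0.274) and Myc by -1.19 ± 0.52 (edgeR FDR = 0.267), and 0.614% in OKMS. ESCs with a cassette differed from iPSCs -dox in 0.307% (MKOS) and 0.608% (OKMS) of genes. In the latter comparison Klf4 was 2.83-fold higher in the ESCs without passing (edgeR FDR = 0.113), which DESeq2 called (log2 1.44, FDR = 0.0462). TNG MKOS ESCs differed from TNG ESCs in 0.0064% of genes and E14 ESCs in 0.0448%, and the largest member difference there was log2 -0.49 ± 0.55, for Myc in E14. Sox2 did not pass between MKOS and WT MEFs (log2 1.61 ± 0.57, edgeR FDR = 0.362), and passed without replicate 1 of WT MEFs (edgeR FDR = 0.0139), which leaves a WT library with 0 Sox2 reads and hence no fold.

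**Figure D2:**
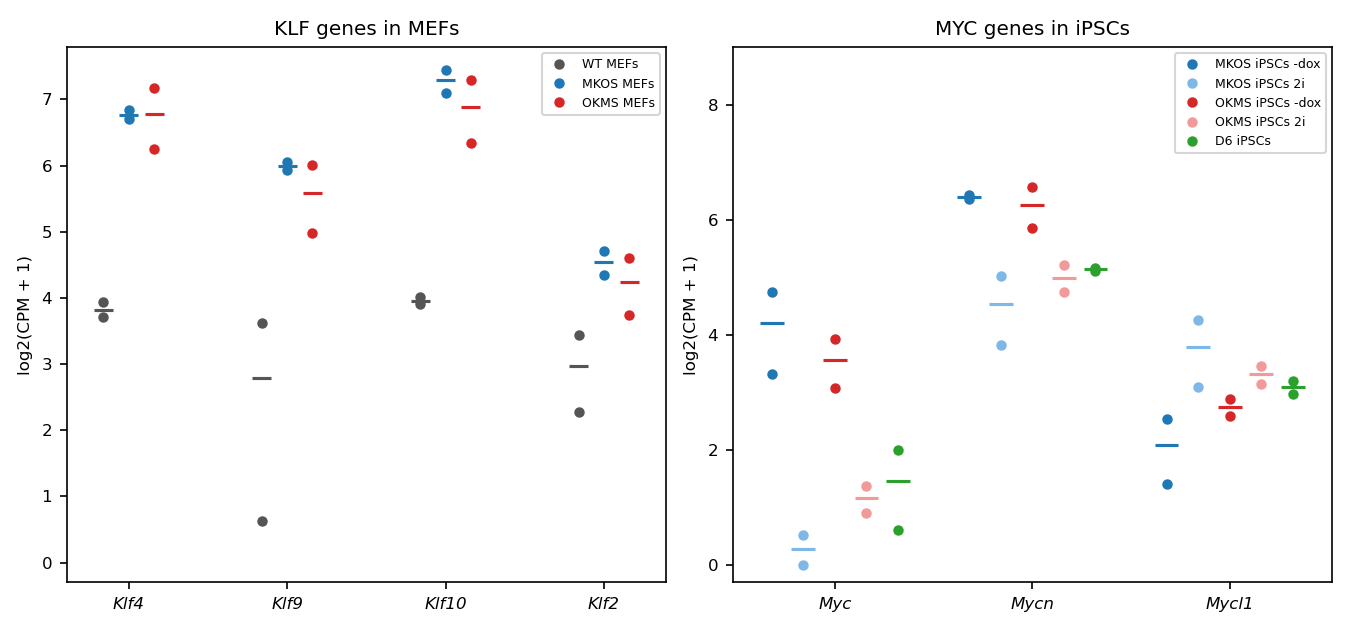
Levels as log2(CPM + 1) of 4 KLF genes in MEFs (left) and of 3 MYC genes in iPSCs (right); each point is a library and each short line the average of its condition. Klf4, Klf9, and Klf10 are higher in MEFs with a cassette than in WT MEFs, as is Klf2, which edgeR did not call. Myc is lower in 2i and in D6 than in iPSCs without doxycycline.

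The study set the cassettes against each other in the same gate, and here Pou5f1 was the 1 member that differed. In E-CAD+ 2NG- cells the MKOS libraries (765 to 857 CPM) were above all OKMS libraries (144 to 333 CPM), a 3.42-fold difference (log2 1.77 ± 0.35, edgeR FDR = 0.00101), and 1 of 4 members was called, against 5.07% of all genes. The call held in each of 13 other settings, with log2 values from 1.52 to 2.29. In 3NG- cells the groups again did not overlap (738 to 895 against 154 to 475 CPM), and the difference was 2.54-fold (log2 1.35 ± 0.34, edgeR FDR = 0.0222), with 1 of 4 members and 2.17% of all genes called. This call was lost without any of the MKOS libraries or without OKMS replicate 1 or 2, with log2 values of 1.05 to 1.37 and FDR values of 0.0534 to 0.194, and without OKMS replicate 3 the difference was log2 1.97 (edgeR FDR = 0.00114). In 3NG+ cells it was log2 0.45 ± 0.34 (edgeR FDR = 0.603), and no member was called, against 0.685% of all genes, with 1 at an unadjusted p under 0.05 and 0 by DESeq2. Oct4 is the first factor in OKMS, the cassette with fewer Pou5f1 reads, and comes after Myc and Klf4 in MKOS.

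Sox2, Klf4, and Myc did not pass between the cassettes in any of the 3 gates. In 2NG- cells MKOS minus OKMS was log2 -0.27 ± 0.37 for Sox2, -0.28 ± 0.37 for Klf4, and -0.32 ± 0.44 for Myc. Without OKMS replicate 3 these became 0.18, -0.66, and -0.64, and without OKMS replicate 2 the Klf4 difference was 0.11, so Sox2 and Klf4 changed sign with 1 library left out. In 3NG- cells it was 0.91 ± 0.37 for Sox2 (edgeR FDR = 0.222), -0.05 ± 0.36 for Klf4, and -0.36 ± 0.44 for Myc, and without OKMS replicate 3 it was 1.30 (edgeR FDR = 0.0984), -0.34, and -0.78. In 3NG+ cells it was -0.45 ± 0.36, 0.52 ± 0.38, and 0.96 ± 0.46 for the same genes (edgeR FDR of Myc = 0.398). A missing call does not show that the cassettes gave equal levels.

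**Figure D3:**
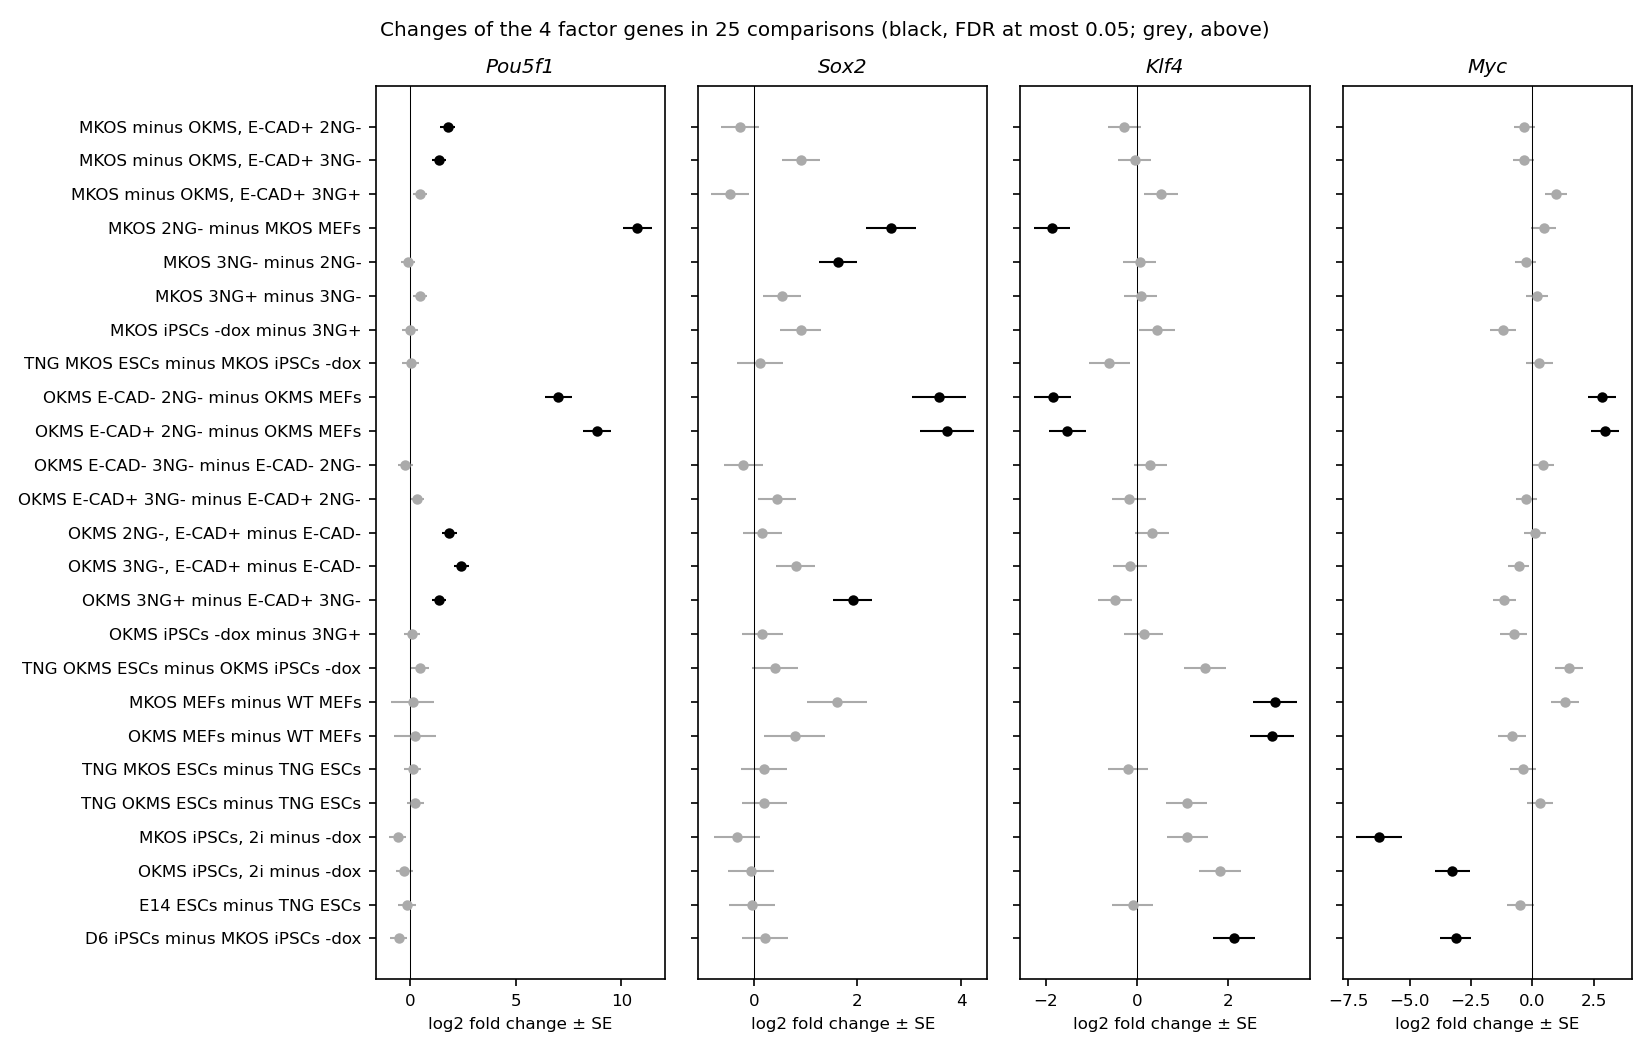
Fitted log2 fold changes with SE on the horizontal axis for the 4 factor genes in 25 comparisons of conditions, named along the vertical axis; black points passed an FDR of 0.05 and grey points did not. The 3 uppermost comparisons set MKOS against OKMS, where Pou5f1 passes in 2NG- and 3NG- cells and the other members in none.

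A ratio of reads within a library does not depend on how libraries are scaled. Myc is the first factor in MKOS and Oct4 in OKMS, and the log2 ratio of Myc to Pou5f1 reads was -4.34 to -4.07 in MKOS 2NG- cells and -1.55, -0.98, and -3.71 in OKMS 2NG- cells. It was -4.52 to -4.18 in MKOS and -1.83, -1.37, and -5.11 in OKMS 3NG- cells, and the ranges overlapped in 3NG+ cells (-5.18 to -4.43 and -5.81 to -4.11). The averages were lower in MKOS in 2NG- (-4.20 against -2.08) and 3NG- cells (-4.37 against -2.77) and higher in MKOS in 3NG+ cells (-4.68 against -5.12). Averaged over these gates the ratio was 2.14-fold lower in MKOS (log2 -1.10), which did not pass, as the exact permutation test of the cassette labels within gates gave a two-sided p = 0.0723 over 18 libraries (0.145 adjusted over the 2 ratios tested; smallest possible p = 0.00025). Without OKMS replicate 3 of 3NG- cells it was log2 -1.49 (exact permutation p = 0.0183), and without that of 2NG- cells -1.37 (exact permutation p = 0.0435). Without the 7 sorted libraries, which include both, it was -1.58 and did not pass (exact permutation p = 0.0528), nor did it without any other single library (exact permutation p = 0.0515 to 0.152). The permutation treats libraries from different gates as independent. Should a replicate number mark a shared culture, which the labels do not state, these p-values, the smallest possible one included, would be too small. Klf4 follows the first factor and Sox2 comes last in both cassettes. Averaged over the gates, the ratio of their reads differed by log2 0.03, MKOS minus OKMS (exact permutation p = 0.941, n = 18, adjusted 0.941). In MKOS and OKMS this log2 ratio averaged -0.21 and -0.28 in 2NG-, -1.78 and -0.86 in 3NG-, and -2.31 and -3.26 in 3NG+ cells. Differences of opposite sign in 3NG- and 3NG+ cells thus cancel in the average over gates, which does not show equal ratios. Without the 7 sorted libraries it was -0.42 (exact permutation p = 0.35).

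**Figure D4:**
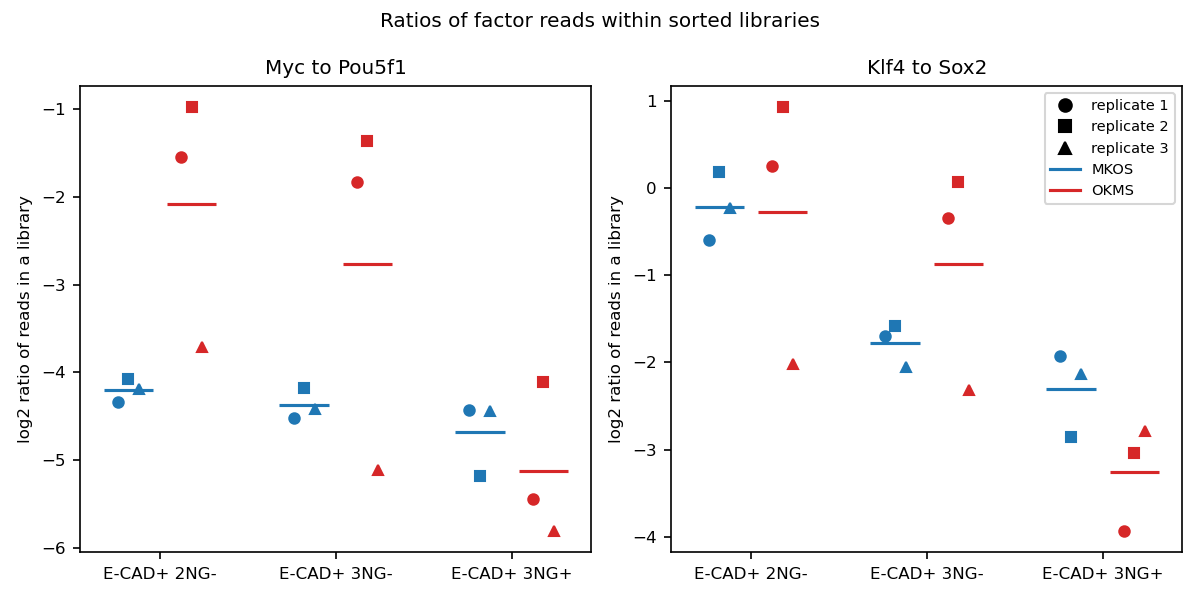
Log2 ratio of Myc to Pou5f1 reads (left) and of Klf4 to Sox2 reads (right) in each E-CAD+ library, by gate on the horizontal axis; blue is MKOS, red is OKMS, shapes are replicates, and lines are averages. Myc to Pou5f1 ratios of all OKMS libraries lie above the MKOS values in 2NG- cells, with replicate 3 nearest to them. In 3NG- cells OKMS replicates 1 and 2 lie above the MKOS values and replicate 3 lies below them.

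Genes related to the factors were described from lists chosen with earlier results of these data known. In 2NG- cells, where 2.84% of all genes were higher and 2.23% lower in MKOS, 0 of 10 POU genes tested differed between the cassettes with edgeR (3 at an unadjusted p under 0.05, 0 with DESeq2). Of 15 SOX genes, 4 were lower in MKOS and 0 were higher (median log2 difference -0.96, against 0.00295 over all genes), led by Sox11, a neural factor, at 0.135 to 2.86 CPM in MKOS and 20.3 to 29.2 CPM in OKMS (log2 -3.94 ± 0.65, edgeR FDR = 0.0001). Sox11 was also lower in MKOS in 3NG- (log2 -2.94 ± 0.62, edgeR FDR = 0.0047) and 3NG+ cells (log2 -2.58 ± 0.64, edgeR FDR = 0.043). In 3NG+ cells the libraries overlapped, at 4.42, 1.38, and 1.13 CPM in MKOS and 12.99, 1.40, and 17.0 CPM in OKMS. The OKMS value of 1.40 CPM rests on 2 reads. Of 15 KLF genes, 1 was higher in MKOS 2NG- cells, Klf8, at 17.9 to 21.4 CPM against 0.776 to 3.87 CPM (log2 3.19 ± 0.79, edgeR FDR = 0.011). Of 11 genes of the MYC network, Mxd3, a MAX partner that opposes MYC, was higher in MKOS (log2 2.38 ± 0.63, edgeR FDR = 0.018) and Mycl1 was lower (log2 -3.40 ± 0.86, edgeR FDR = 0.012).

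Among genes on which OCT4 and SOX2 are known to act together, 1 of 6 was higher in MKOS in 2NG- cells, 2 of 6 in 3NG- cells, and 0 in 3NG+ cells (0 at an unadjusted p under 0.05, 0 with DESeq2), against 2.84%, 1.38%, and 0.345% of all genes. Their median log2 difference was 0.11, 0.98, and -0.32 in these gates, against 0.00295, 0.00739, and 0.00773 over all genes. Spp1, the secreted protein osteopontin, passed in 2NG- and 3NG- cells (log2 1.65 ± 0.38, edgeR FDR = 0.0058, and log2 1.499 ± 0.38, edgeR FDR = 0.023), and Fbxo15 in 3NG- cells (log2 1.29 ± 0.36, edgeR FDR = 0.045). Of 14 MYC targets, 1 was lower in MKOS 2NG- cells, the cell cycle kinase gene Cdk4 (log2 -1.38 ± 0.26, edgeR FDR = 0.00067), and 0 differed in 3NG- cells (4 at an unadjusted p under 0.05, 2 with DESeq2). In 3NG+ cells 1 of the 14 was lower in MKOS and 0 were higher (2 at an unadjusted p under 0.05, 1 with DESeq2), against 0.339% of all genes lower. Fibroblast markers summed to 387 to 791 CPM in MKOS and 78.6 to 225 CPM in OKMS E-CAD+ 2NG- cells, with 5 of 6 higher in MKOS, and pluripotent markers to 2013 to 3079 and 613 to 2765 CPM, with 2 of 5 higher. In 3NG- cells the fibroblast sums were 551 to 969 and 152 to 282 CPM and the pluripotent sums 7003 to 8917 and 1386 to 4748 CPM. The part of either in the differences between the cassettes was not tested.

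On the way from MEFs to 2NG- cells, 15% of all genes rose and 12% fell in MKOS, 11.7% and 10.1% in OKMS E-CAD-, and 15.7% and 13.5% in OKMS E-CAD+ cells. Of the 6 OCT4 and SOX2 targets, 5 rose and 1 fell in MKOS 2NG-, OKMS E-CAD- 2NG-, and OKMS E-CAD+ 2NG- cells alike, and the 1 that fell was Spp1. Of the 14 MYC targets, 9 rose and 1 fell in MKOS, 9 rose and 0 fell in OKMS E-CAD-, and 10 rose and 1 fell in OKMS E-CAD+ cells, with median log2 changes of 1.39, 1.33, and 1.27 against 0 over all genes. Nop56 rose by log2 2.14 ± 0.21, 1.99 ± 0.20, and 2.16 ± 0.21 in these comparisons (edgeR FDR = 2.4e-10, 2e-09, and 1.9e-10). Klf6, another zinc finger gene of the family, fell, with log2 changes of -2.35 ± 0.32, -3.02 ± 0.33, and -2.21 ± 0.32 (edgeR FDR = 3.1e-07, 6.7e-09, and 8.7e-07), and was 1 of 5, 5, and 4 KLF genes that fell. Of the 15 KLF genes tested, 2, 0, and 0 rose. These changes start from MEFs with a cassette, in which Klf9 and Klf10 were higher than in WT MEFs. From OKMS 3NG- to 3NG+ cells, Klf2, a KLF gene of naive ESCs, rose with Pou5f1 and Sox2 (log2 2.22 ± 0.42, edgeR FDR = 0.00075). So did 4 of the 6 OCT4 and SOX2 targets. Of the 15 KLF genes, 2 rose and 1 fell in this step, against 3.06% and 3.21% of all genes.

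Across the 20 condition averages of log2(CPM + 1), the genes most like each member by Pearson correlation were Sall4 (0.99), Zfp296, Tdh, Tdgf1, and Hspbap1 for Pou5f1, Chchd10 (0.98), Tet1, Rif1, Mybl2, and Msh6 for Sox2, Arih1 (0.77), Gm7334, Arl8b, Peli1, and Cggbp1 for Klf4, and 1700034H14Rik (0.93), Atp5e, C130022K22Rik, Slc39a14, and Mat2a for Myc. By Spearman correlation, 0, 1, 2, and 2 of these 5 remained among the first 5 for Pou5f1, Sox2, Klf4, and Myc. Between members the correlation was 0.93 for Pou5f1 and Sox2 and -0.54 for Klf4 and Myc, and between -0.21 and 0.07 for the other pairs. These values are descriptions over 20 conditions that share cell lines and cassettes.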

How the data were processed

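The authors sequenced the 5′ ends of transcripts with the STRT method from 48 libraries and deposited unnormalized counts per transcript. The file header states that multireads count toward their outermost 5′ exon hit. The submitters' processing notes name Bowtie 0.12.7 and mm10, whereas the methods name an older build; 84.04% of 20607 symbols had a position within 200 bases of their GRCm38 start, so GRCm38 was used. Table columns that matched no sample numbered 0. Repeat and spike-in entries were left out of library totals. CPM is reads scaled to a fixed total of transcript reads. Intervals and the 3-read floor cover counting error only, as no molecular identifiers are named.

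The fit to all 48 libraries used edgeR 4.0.16 with R 4.3.3 (TMM scaling, filterByExpr by condition, 1 coefficient for each of 20 conditions, quasi-likelihood test, Benjamini-Hochberg FDR of at most 0.05 over 15630 genes). Ratios within a library used log2 of reads plus 0.5. Genes like a member were sought among tested genes with an average of at least 10 CPM. From each list, up to 4 genes of lowest FDR were named. Members and lists were chosen with earlier results of these data known. Replicate pairs differed by more than sampling noise (lowest chi-square per gene 13.3 over 36 pairs). Alternatives were DESeq2 1.42.0 and its size factors, library totals, no filter, the compared conditions alone, a replicate block, 7 sorted libraries left out, and each library left out with the dispersion trend of the full fit. The tests were tried on simulated data.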

Additional observations from a re-analysis of the deposited data

How the results depend on the processing

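Of the member tests in other settings, 755 stayed on their side of the FDR threshold with the same direction where called, 20 passed that had not, and 7 no longer passed. With single libraries left out, 602 stayed, 4 passed, and 22 no longer passed; no called result changed direction, whereas differences that did not pass could change sign. All 112 member tests stayed on their side with DESeq2's size factors and with library totals alone. The labels do not say that a replicate number of sorted libraries marks a shared experiment, and it was not used to pair them, since the deviations of 84 pairs with the same number correlated at -0.0511 to 0.414 (0.0939 on average), 27 of them over 0.1. As a hint from the data, 20 of 24 libraries were nearest their own number. With the replicate block 111 of 112 member tests stayed, and Klf4 passed in OKMS iPSCs in 2i against -dox (log2 1.82), which made 2 members.

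For MKOS against OKMS, the genes called in 2NG- cells were 1260 without the filter and 457 to 607 with a library left out, against 793. In 3NG- cells they were 864 without the filter, 556 with DESeq2, and 151 to 265 with a library left out, against 339, and in 3NG+ cells 484, 271, and 40 to 122, against 107, or 219 without the 7 sorted libraries. Pou5f1 in 3NG- cells did not pass in a fit to its own conditions (log2 1.32) and was 1.05 to 1.97 with a library left out, while Sox2 passed there without the filter (log2 0.91). The ratio of Myc to Pou5f1 was -1.49 to -0.86 with a library left out.

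Member counts moved as follows. Without the filter, 2 members were called for MKOS against OKMS in 3NG- cells, for OKMS 3NG- E-CAD+ against E-CAD-, for TNG OKMS ESCs against OKMS iPSCs, for MKOS against WT MEFs, and for OKMS iPSCs in 2i, and 1 for MKOS iPSCs against 3NG+ cells and for the changes from MEFs to 2NG- and from 3NG- to 3NG+ cells. In fits to the compared conditions alone, 0 were called for the cassettes in 3NG- cells, for OKMS iPSCs in 2i, and for D6, 1 for OKMS 3NG+ against 3NG- and for the change from MEFs to 2NG- cells, and 2 for MKOS MEFs. Without the 7 libraries, 0 were called for MKOS 3NG- against 2NG- and for OKMS 2NG- E-CAD+ against E-CAD-, 1 for TNG OKMS ESCs against iPSCs and for the change from MEFs to 2NG- cells, and 2 for OKMS iPSCs in 2i. DESeq2 called 2 for OKMS iPSCs in 2i and 1 for TNG OKMS ESCs against iPSCs and for the change from MEFs to 2NG- cells. With a library left out, the counts were 0 to 1 for the cassettes in 3NG- cells, MKOS 3NG- against 2NG-, OKMS against WT MEFs, OKMS iPSCs in 2i, and the change from MEFs to 2NG- cells, 1 to 2 for MKOS against WT MEFs and MKOS iPSCs in 2i, 1 to 3 for OKMS 3NG+ against 3NG-, and 0 to 2 for D6. Where a left-out library leaves 1 in a condition, it is assumed to vary like the others. The cause of these shifts was not tested.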
